A study of Arabidopsis thaliana with 30 samples.

Results

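Cells taken out of mock-treated Arabidopsis thaliana roots by wall digestion and fluorescence sorting were set against undigested mock-treated roots, so that no group in the comparison had been given auxin at treatment. The comparison used 15 of the 30 single-colour arrays of the series, chosen by their labels alone. There were 3 arrays each of sorted stele (reporter pWOL::GFP), sorted xylem-pole pericycle (enhancer trap line E3754), sorted epidermis with lateral root cap (pWER::GFP) and sorted columella (enhancer trap line PET111), all under mock treatment, and 3 arrays of intact mock-treated roots. All plants were Col-0 seedlings 1 week old, treated with solvent for 2 h, and the sorted groups were then digested for 1 h. The other 15 arrays are the same sample types treated with 5 µM of the auxin indole-3-acetic acid (IAA). They served as a second set in which sorted cells were set against intact roots. In that set the sorted cells also had longer exposure to IAA than the intact roots.

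Several things differ together between a sorted group and the intact roots: enzyme digestion, the time it took, passage through the sorter, the GFP line and the mix of cell types. These cannot be told apart in this design for a single tissue. A change that held in all 4 sorted tissues was shared by 4 lines and 4 cell mixes, but the 4 comparisons share the same 3 intact arrays. Digestion, its time and the sorter were common to all 4 sorted tissues, so such a change does not tell these apart either. Nor does it tell them from the loss of cell types that all 4 sorts leave out. In bulk RNA, fewer cells of a type and less RNA per cell cannot be told apart. The design text names IAA in the digestion step without saying whether mock samples were digested without it. The labels do not say that the arrays of a group came from separate cultures, so p-values reflect only how far these samples scatter, and part of that scatter may be technical.

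Plant cells sit in a rigid wall of cellulose, hemicellulose and pectin, and enzymes that remove it release naked protoplasts. Wall breakage, wounding and osmotic change are known to open calcium channels and to switch on early response genes, among them calmodulin-like calcium sensors, zinc finger repressors of the ZAT family and ERF factors that act with jasmonate. Small heat shock proteins hold unfolding proteins in solution until HSP70 machines refold them. Glutathione transferases and UDP-glycosyltransferases tag reactive or foreign compounds, and class III peroxidases act in the wall, where they couple lignin precursors and loosen or stiffen polymers.

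Signals are MAS5 intensities on a linear scale, and changes are differences of log2(signal + 16), sorted minus intact, which understate the change of genes near the bottom of the scale. A gene was called when its adjusted p was under 0.05 in limma. Of 13356 genes with a named probe set, 9324 passed a filter on low signal and were tested. In the average of the 4 sorted mock tissues 2818 genes were higher (30.2% of those tested) and 2868 were lower (30.8%) than in intact mock roots. The stele had 2783 higher (29.8%) and 2446 lower (26.2%), the pericycle 2320 higher (24.9%) and 2487 lower (26.7%), the epidermis 2314 higher (24.8%) and 2652 lower (28.4%), and the columella 2255 higher (24.2%) and 2517 lower (27.0%). The median change over all tested genes was 0.014.

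The change held in all 4 tissues for 1403 genes that were higher (15%) and for 1635 that were lower (17.5%). Another 2100 genes were higher in 1 to 3 tissues and lower in none, and 1760 were lower in 1 to 3 tissues and higher in none. A further 160 genes were called in opposite directions in different tissues, and 2266 were called in no tissue. Among the genes that held in all 4 tissues the median change was 1.50 for the higher and -1.63 for the lower ones. In 86 of the higher and 106 of the lower genes the change exceeded 8-fold in every tissue. On the raw signal, 1499 genes had all 12 sorted arrays above all 3 intact arrays (16.1%) and 1829 had them all below (19.6%). Of the genes that held in all 4 tissues, 1285 of the higher and 1541 of the lower ones were separated in this way.

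**Figure D1:**
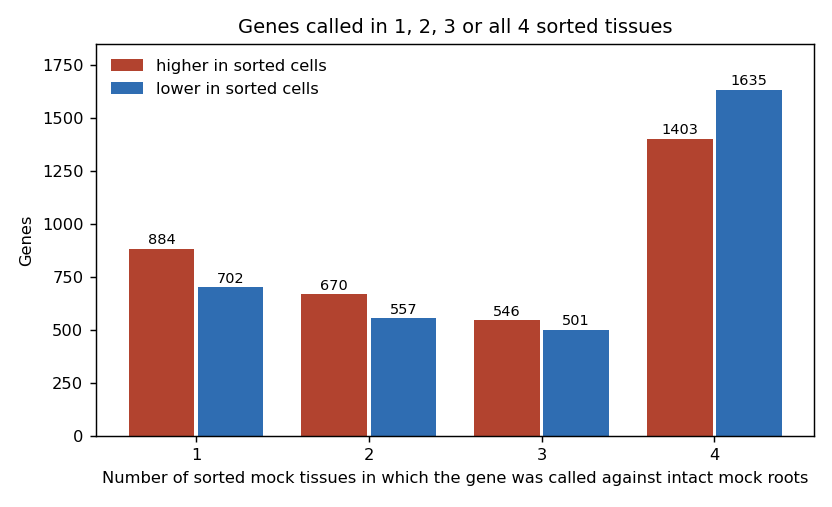
Number of genes (y axis) called higher (red) or lower (blue) in sorted mock cells than in intact mock roots, by the number of tissues in which they were called (x axis), leaving out genes called in opposite directions. The bars for all 4 tissues are the tallest in both directions, at 1403 and 1635 genes.

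All arrays had been scaled to a trimmed mean signal of 250. The median signal over all probe sets was 54.4 to 73.0 in the sorted mock arrays, with the epidermis lowest at 54.4 to 62.0, and 70.5 to 76.0 in the intact mock arrays. The log2 ratio of the 3′ to the 5′ control probe set of GAPDH, a sign of RNA and labelling quality, spanned 1.10 to 2.30 in the sorted arrays and 1.34 to 1.63 in the intact arrays. It was above every intact array in 8 of the 12 sorted arrays, among them all 3 of the pericycle, and below in 1. The same ratio for actin was below every intact array in 7 of the 12 sorted arrays and above in none. For ubiquitin 3 of the 12 were above every intact array and 2 below. The signal of the 25S ribosomal RNA probe set was 7934 to 42230 in the sorted arrays, with 11 of 12 above every intact array, and 16370 to 17080 in the intact arrays. The lowest value, 7934, was that of epidermis array 1. Arrays of 1 mock group correlated at 0.95 to 0.98. The part of these measures in the changes of any gene was not tested.

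The 3 genes given as markers of this comparison were higher in sorted cells of every tissue. They were chosen with earlier results of these data known, so their rises are a description. CML37, a calmodulin-like calcium sensor induced by wounding, had signals of 2349, 2162 and 2022 in the stele, 4824, 5189 and 4404 in the pericycle, 3198, 3469 and 2685 in the epidermis and 3141, 4511 and 4833 in the columella, against 68.1, 15.9 and 80.2 in intact roots. HSP17.6C, a cytosolic small heat shock protein, had 869.6, 1427 and 2063 in the stele, 10026, 12464 and 11075 in the pericycle, 2997, 3097 and 4553 in the epidermis and 2466, 4535 and 10053 in the columella, against 11, 19.2 and 33.7 in intact roots. ZAT10, a zinc finger repressor of the cold, salt and wound responses, had 541, 701 and 1019.7 in the stele, 1376, 969.8 and 1063 in the pericycle, 971, 842 and 579.8 in the epidermis and 1006, 721 and 801 in the columella, against 32.7, 62.4 and 77.2 in intact roots. Every sorted array lay above every intact array for all 3 genes. The same held on 1 side or the other for every gene given by a range of sorted signals in the paragraphs that follow, except AT2G18980. The average log2 changes were 5.74 ± 0.20 for CML37, 6.80 ± 0.29 for HSP17.6C and 3.62 ± 0.20 for ZAT10 (SE, 3 arrays per group), with adjusted p of 1.87e-23, 3.6e-21 and 1.08e-17. HSP17.6C differed among the sorted tissues: its change was 8.27 in the pericycle and 5.26 in the stele (F-test adjusted p = 3.37e-07). ZAT10 did not pass that test (0.187), with changes of 3.39 (stele), 4.01 (pericycle), 3.49 (epidermis) and 3.58 (columella).

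**Figure D2:**
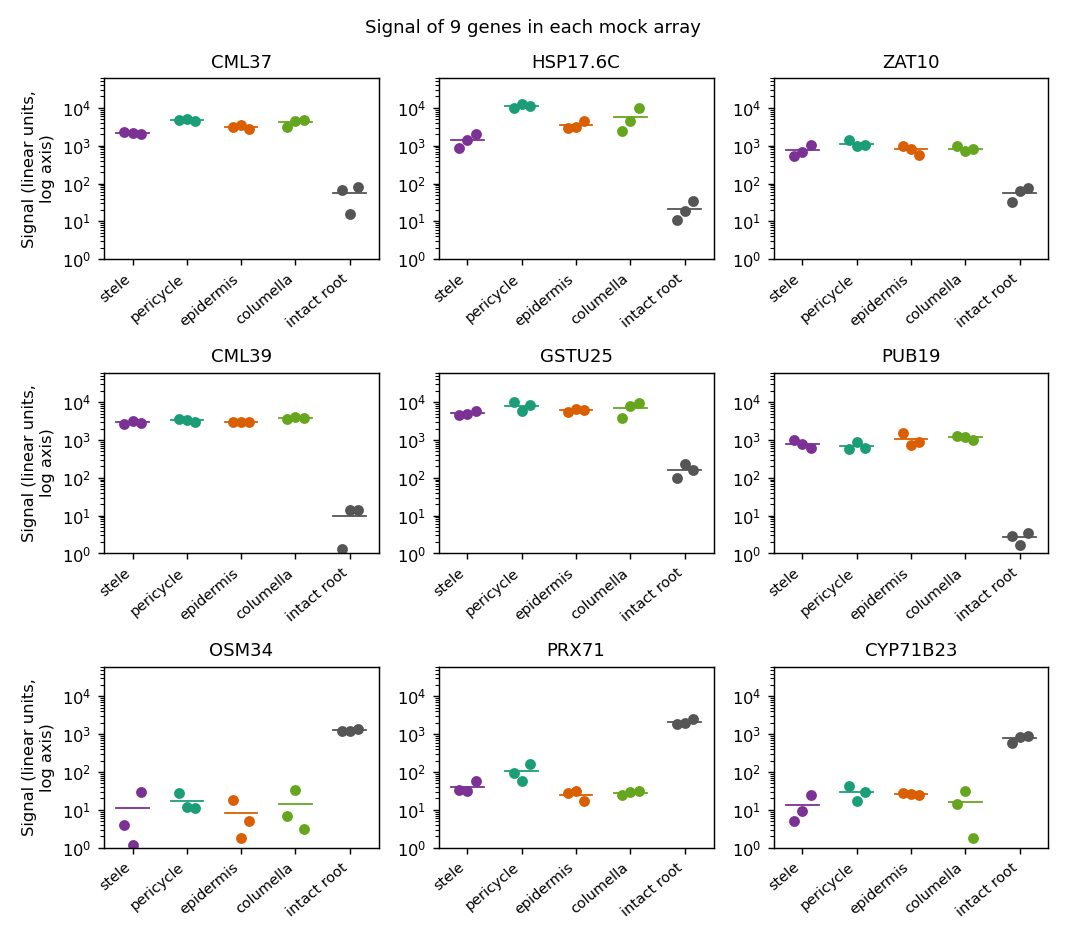
MAS5 signal (log axis) of 9 genes in each mock array, by sorted tissue and intact root; points are arrays and lines the mean of 3. The upper 6 genes are higher in every sorted array and the lower 3 (OSM34, PRX71, CYP71B23) are lower in every sorted array than in any intact array.

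Of 12 tested calmodulin-like genes 6 rose in all 4 tissues, where 15% of all genes did, and 2 fell in all 4, where 17.5% did, with a median change of 1.65 against 0.014 over all genes. CML39 had the largest change to hold in every tissue of all genes tested: its signal was 2666 at the lowest, 3099 at the median and 4081 at the highest in the sorted mock arrays, against 1.28, 14.1 and 14.3 in intact roots, where it stood near the bottom of the scale. The changes of CML39 were 6.85 (stele), 7.04 (pericycle), 6.87 (epidermis) and 7.26 (columella), a spread that did not pass the F-test (adjusted p = 0.274). CML38, a close relative of CML37, rose by 4.56 ± 0.20, and CML23 rose by 2.91 ± 0.20, less in the stele (1.70) than in the columella (3.52). The 2 that fell were CML43, with a signal of 24.7 to 112 (median 55.1) in sorted arrays against 234, 347 and 263 in intact roots, and CML42, with 86.7 to 409 (median 117) against 426, 423 and 431. CML42 lost its call in the pericycle when either pericycle mock array 1 or 2 was left out.

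All 7 tested genes of the HSP70, HSP90, HSP101 and cochaperone list were higher on average and 6 of them rose in all 4 tissues. Over all genes these shares were 30.2% and 15%, and the list had a median change of 3.00. Only 7 of the 30 listed genes had a named probe set, and no HSP90 or HSP101 gene was among them. Hop3, which passes clients between HSP70 and HSP90, had 1563 to 4216 (median 2576) in sorted arrays, against 110.3, 141 and 115 in intact roots, a change of 4.23 ± 0.22. ROF2, a heat-inducible prolyl isomerase that binds HSP90, rose by 4.25 ± 0.20, and Fes1A, a cochaperone of cytosolic HSP70, by 3.00 ± 0.21. The order of tissues was not the same for all: the change of Hsp70-2 was 3.45 in the stele and 1.69 in the columella, while that of Fes1A was 2.14 in the stele and 3.73 in the pericycle. Of 10 tested small heat shock proteins 4 rose in all 4 tissues (15% of all genes), 1 fell in all 4 (17.5%), and the median change was 1.14. AT1G54050, another member of that list, had 1026 to 6944 (median 3629) in sorted arrays against 38.3, 42.1 and 40.3 in intact roots. AT2G29500 rose by 3.02 ± 0.21. AT4G21870 was the member that fell, by 2.75 ± 0.23, and its change in the auxin arrays was -0.64. No heat shock factor on the list had a named probe set, so none was tested.

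Few members of the stress transcription factor lists had named probe sets, and most of those tested rose. AT3G53600, on the ZAT list, had 653 to 1297 (median 1102) in sorted arrays, against 13.7, 4.00 and 13.2 in intact roots. With ZAT10 it made up the 2 of 4 tested ZAT genes that rose in all 4 tissues, where 15% of all genes did. Of the other 2, 1 was lower on average, at -1.48 ± 0.34. The last was called lower in the stele (-0.74) and higher in the epidermis (0.75). All 7 tested AP2/ERF genes were higher on average (30.2% of all genes) and 4 rose in all 4 tissues (15%), with a median change of 1.50. ORA47, an activator of jasmonate synthesis genes, had 242 to 702 (median 469) in sorted arrays, against 18.4, 4.50 and 11 in intact roots, with changes between 3.83 and 4.27 in the 4 tissues (F-test adjusted p = 0.595). AT5G61890, also on the ERF list, was graded instead: its signal was 2366, 2711 and 2895 in the stele, 1622, 1353 and 1385 in the pericycle, 88.5, 226 and 261 in the epidermis and 182, 337 and 355 in the columella, against 2.10, 5.59 and 5.19 in intact roots. The stele and pericycle arrays stood above all epidermis and columella arrays for this gene (F-test adjusted p = 1.83e-13). AT1G19210 ran the other way, at 2.45 for stele and 4.27 for columella. Of 4 tested WRKY genes 3 were higher on average (30.2% of all genes) and 1 rose in all 4 tissues (15%). WRKY6 and WRKY53, both linked to senescence and defence, rose by 1.74 ± 0.17 and 1.51 ± 0.25, and the others had average changes of 0.68 and -0.02. For WRKY6 and WRKY53 the epidermis had the largest change, 2.32 and 2.29, and the stele the smallest, 0.83 and 0.62, which for WRKY53 was not called.

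Of 3 tested jasmonate genes, OPCL1, a CoA ligase of jasmonate synthesis, rose by 2.65 ± 0.19, with signals of 699 to 1646 (median 1105) in sorted arrays against 154, 227 and 116 in intact roots. MYC3 and MYC4, the transcription factors that carry the jasmonate response, fell in all 4 tissues, by 0.81 and 1.28 on average. JRG21, a jasmonate-responsive oxygenase, had 400.04 to 1315 (median 625) in sorted arrays, against 2.66, 7.63 and 2.16 in intact roots. The list of wall damage and pattern-triggered immunity genes had changes both ways: none of 6 tested members held in all 4 tissues, and its median was 0.09. PUB22 and PUB23, ubiquitin ligases that damp immune signalling, rose in the pericycle (1.78 and 1.65), epidermis (1.22 and 2.02) and columella (1.62 and 1.97), while each had a change of 0.12 in the stele. BIK1, a kinase behind immune receptors, fell in the stele (-1.61), epidermis (-1.60) and columella (-1.18), with 0.29 in the pericycle. PUB24 was called higher in the pericycle (0.69) and lower in the other 3 tissues, and its average change of -0.58 was not called under quantile normalization, under centring on the 75th percentile, or without intact mock array 1 or 2.

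Some detoxification and water-stress genes rose in all 4 tissues. GSTU25, a glutathione transferase, had 3897 to 10302 (median 6092) in sorted arrays, against 100.4, 235 and 159 in intact roots, a change of 5.20 ± 0.21. NDB2, a mitochondrial NADH dehydrogenase that bypasses the proton-pumping chain, had 2213 to 3369 (median 2659) against 346, 236 and 288, and its 4 tissue changes lay between 2.97 and 3.26. Of 11 tested glutathione transferases 2 rose in all 4 tissues (GSTU25 and GSTU26) and 2 fell in all 4, shares near those of all tested genes (15% higher and 17.5% lower in all 4), with GSTL3 lowest at -2.73 ± 0.22, and the family's median was -0.46. Of 36 tested UDP-glycosyltransferases 8 rose and 15 fell in all 4 tissues, where 15% and 17.5% of all genes did, with a median of -0.96. UGT73B4, which glucosylates phenolics and xenobiotics, rose by 3.38 ± 0.19, and UGT72E1, which glucosylates lignin precursors, had a change of -3.24 ± 0.26. Of 7 tested LEA proteins and dehydrins, which protect dried or salted cells, all 7 were higher on average and 5 rose in all 4 tissues (30.2% and 15% of all genes), with a median of 1.59; under quantile normalization 5 were called higher on average. AtLEA4-1 had 194 to 961 (median 404) in sorted arrays, against 11.7, 9.08 and 9.99 in intact roots, and the dehydrin LTI30 rose by 2.53 ± 0.16. The glutathione transferase, glycosyltransferase, LEA, jacalin, peroxidase, CYP71B, amino acid, iron, ATG8, GH9 and GH3 sets were drawn up after values had been seen. The other lists were also chosen with earlier results of these data known.

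Ranked by the smallest of the 4 changes, the genes with the largest rises to hold everywhere were CML39, AT5G19110, AT2G20625, AT4G18280, HSP17.6C, PUB19, CP1, CML37, AT3G53600, GSTU25, JRG21 and AT3G15670. PUB19, a ubiquitin ligase that acts in the drought response, had 590.4 to 1484 (median 867) in sorted arrays, against 2.93, 1.65 and 3.54 in intact roots. CP1, a papain-like cysteine protease, had 1607 to 3786 (median 2678) against 27.5, 81.1 and 22.4. AT5G19110 had 2555 to 7041 (median 4657) against 56.4, 65.1 and 22.0. The annotation used here gives no function for the genes shown by locus number, which make up 5 of these 12. AT2G20625 rose by 5.84 ± 0.21, AT4G18280 by 5.54 ± 0.19 and AT3G15670 by 5.46 ± 0.18. AT3G15670 was the steepest of them across tissues, with 6.05 in the stele and 4.63 in the columella (F-test adjusted p = 4.4e-06).

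**Figure D3:**
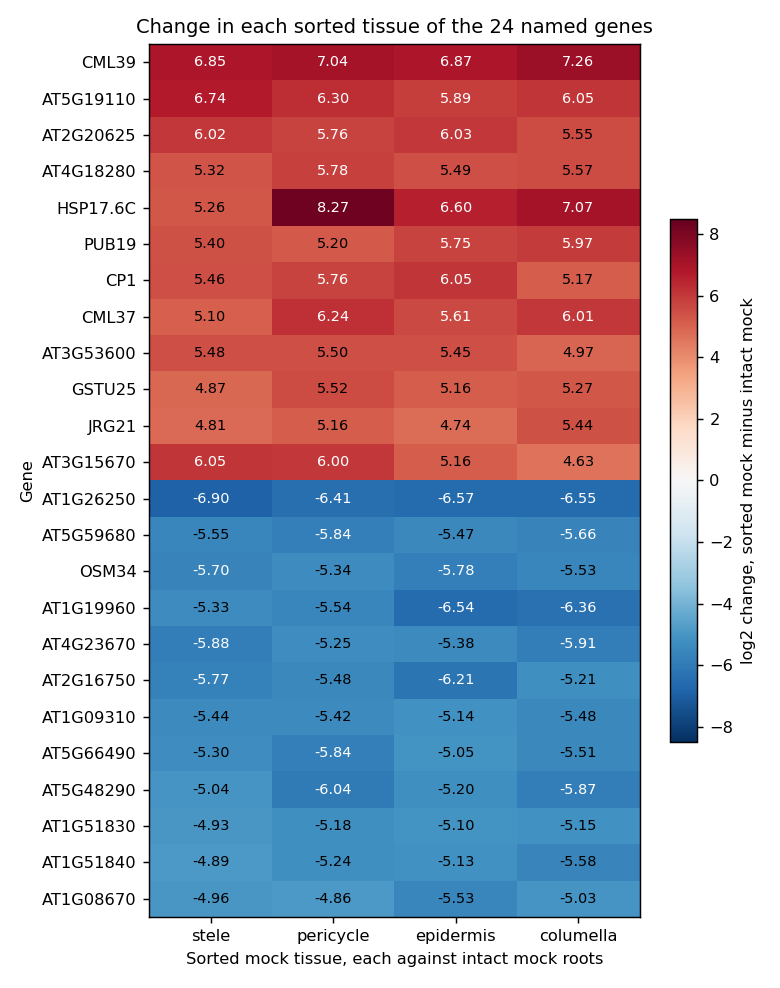
Log2 change, sorted mock minus intact mock, of the 12 rises and 12 falls ranked highest by the smallest of their 4 changes; columns are the sorted tissues and colour follows the change. The rises lie between 4.63 and 8.27 and the falls between -4.86 and -6.90 in every tissue.

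AT1G26250 had the largest fall to hold in every tissue: 3.16 at the lowest, 31.4 at the median and 47.8 at the highest in the sorted arrays, against 4318, 3682 and 4521 in intact roots, a change of -6.61 ± 0.31. OSM34, an osmotin-like defence protein, had 1.19 to 33.3 (median 9.01) in sorted arrays, against 1245, 1216 and 1363 in intact roots. AT5G59680 had 1.15 to 39.3 (median 16.1) against 1439, 1384 and 1869. For these genes the sorted signals were at the bottom of the array's scale, and the table holds no detection calls, so they give a low level but not an absence. The other 9 ranked falls, AT1G19960, AT4G23670, AT2G16750, AT1G09310, AT5G66490, AT5G48290, AT1G51830, AT1G51840 and AT1G08670, had average changes between -5.94 and -5.09, and of the 12 only AT1G19960 passed the F-test among tissues. Of 3 tested jacalin lectins, JAL33 and JAL22 fell in all 4 tissues, where 17.5% of all genes did. The other member was not called on average, at -0.04, but all 3 were called lower on average under quantile normalization. JAL33 had 7.27 to 106 (median 51.8) in sorted arrays against 1765, 1979 and 1902 in intact roots.

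Of 8 tested CYP71B cytochrome P450 genes 7 fell in all 4 tissues, where 17.5% of all tested genes did, and their median change was -2.80. CYP71B23 had 1.83 to 43.9 (median 25) in sorted arrays, against 571, 844 and 905 in intact roots, and CYP71B5 was the member with no call on average, at 0.25 ± 0.22. Of 42 tested class III peroxidases 17 fell and 5 rose in all 4 tissues (17.5% and 15% of all genes), with a median of -1.05. PRX71 had 16.8 to 168 (median 30.9) in sorted arrays, against 1881, 1937 and 2539 in intact roots. PRX72, which acts in lignification, was graded, with 705, 453 and 341 in the stele and 13.1, 77.2 and 61.2 in the columella, against 2132, 2249.8 and 2205 in intact roots. AT5G19890 was less reduced in the pericycle, with 299, 420.4 and 208, against 2282, 2263 and 1914 in intact roots. AT5G24070 had the largest rise of the family, with 876 to 9149 (median 4021) in sorted arrays against 47.7, 77.8 and 55.2 in intact roots.

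Most tested genes of amino acid breakdown, ATG8 proteins and iron supply were lower in sorted cells. Of 11 tested genes of amino acid breakdown and carbon starvation 8 fell in all 4 tissues, where 17.5% of all genes did, with a median of -2.04. The ATG8 and iron counts that follow are to be read against the same share. FDH, formate dehydrogenase, had 0.84 to 89.8 (median 15) in sorted arrays, against 559.6, 456 and 541 in intact roots, and ICL, the glyoxylate cycle enzyme isocitrate lyase, had 127 to 458 (median 197) against 2017, 3049.9 and 2677. MCCA, a subunit of leucine breakdown, fell least in the stele (-1.29) and most in the epidermis (-3.73). IVD, which acts in the same pathway, had a change of -2.07 ± 0.19, and LKR/SDH, of lysine breakdown, one of -2.31 ± 0.23. ETFBETA, an electron carrier for IVD, was the 1 member that rose, by 0.80 ± 0.17, a call in all 4 tissues that was lost without epidermis mock array 2 or intact mock array 3. Of 9 tested ATG8 genes, whose products coat autophagosomes, 5 fell in all 4 tissues, with a median of -1.60. ATG8H was called higher in the pericycle alone (0.77), and its average of 0.45 ± 0.22, not called here, was called under quantile normalization and under centring on the 75th percentile. ATG8F had 740.4 to 2053 (median 1374) in sorted arrays, against 6578, 6388 and 5839 in intact roots. Of 9 tested iron genes 6 fell in all 4 tissues, with a median of -1.08. F6'H1, which makes the coumarins that roots secrete under iron shortage, had 79.0 to 176 (median 105) in sorted arrays, against 1492, 1782 and 1949 in intact roots. The regulators bHLH115 and ILR3 fell by 2.18 and 1.08.

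Of 18 tested expansins and xyloglucan endotransglucosylases 3 rose and 4 fell in all 4 tissues, shares near the 15% and 17.5% of all genes, and the median, -0.07, changed sign under quantile normalization (0.07) and under centring on the 75th percentile (0.06). EXPA9, an expansin, had 3159 to 8534 (median 6261) in sorted arrays, against 239.7, 183 and 128 in intact roots, a change of 4.84 ± 0.17 that was smallest in the stele (4.07). XTH19 rose by 2.11 ± 0.15 and EXPB1 by 1.56 ± 0.25, and EXPB1 lost its call in all 4 tissues without pericycle mock array 1 or intact mock array 2 or 3. XTH26 fell, with 10.2 to 87.1 (median 26.1) in sorted arrays against 659.7, 524 and 773 in intact roots, and XTH33 had a change of -0.95 in the epidermis and -3.46 in the pericycle. XTH33 and GH9B17 were not called in all 4 tissues with a pseudocount of 1. Of 9 tested GH9 endoglucanases 3 rose in all 4 tissues, where 15% of all genes did, GH9C3 by 3.25 ± 0.18, GH9C2 by 2.52 ± 0.20 and GH9B13 by 1.93 ± 0.21, and GH9B17 fell by 1.39 ± 0.28. COB, which orients cellulose deposition, fell by 1.25 ± 0.18.

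GH3.1, which joins auxin to amino acids, had 194 to 712 (median 375) in sorted mock arrays, against 23.7, 27.1 and 23.8 in intact mock roots, a rise of 3.25 ± 0.16 that held in all 4 tissues. IAA30, an Aux/IAA protein, rose by 2.65 ± 0.21, also in all 4 tissues. GH3.3, of the same family as GH3.1, fell in all 4 tissues, with 25.2 to 92.6 (median 54.0) in sorted mock arrays against 297, 480.1 and 281 in intact mock roots. In the auxin-treated arrays GH3.3 stood at 6059 to 13014 in sorted cells and 10401, 11159 and 10766 in intact roots, above every sorted mock array. GH3.1 was at 499.6 to 2223 in sorted auxin-treated cells and 2222, 2064 and 2176 in intact auxin-treated roots. For GH3.1 the ranges of sorted mock and sorted auxin-treated arrays overlapped. Whether mock cells met IAA during digestion is not stated and was not tested. Over all 10 tested GH3 and Aux/IAA genes 2 rose and 1 fell in all 4 tissues, near the shares of all genes (15% and 17.5%), with a median of 0.40.

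Most tested markers of cell types that the sorts leave out were lower in sorted mock arrays than in intact mock roots. The cortex and endodermis list had 6 tested members, of which 4 fell in all 4 tissues, where 17.5% of all genes did. Its summed signal was 349 to 1030 in sorted mock arrays and 2325 to 2488 in intact mock arrays. GSO1, a receptor kinase that seals the Casparian strip, had 49.1 to 228 (median 135) in sorted arrays, against 966, 981 and 692 in intact roots, and JKD, a regulator of ground tissue identity, had 14.4 to 51.4 (median 27.7) against 114, 109 and 109. AT1G61590 fell by 4.41 ± 0.23, while AT1G03990 rose by 1.57 ± 0.22. Another member was called lower in the stele (-1.37) and epidermis (-1.51) alone. Nuclear photosynthesis genes, a sign of green tissue, summed to 205 to 874 in sorted arrays and 2504 to 4131 in intact arrays, and 6 of 7 fell in all 4 tissues (17.5% of all genes). RCA, Rubisco activase, had 1.17 to 132 (median 43.7) in sorted arrays, against 794, 1115 and 1521 in intact roots. PSAE-1 had a change of -3.28 ± 0.34, and LHCB4.3 was the 1 of 7 not called, at -0.32 ± 0.27. The auxin arrays differed less. There the cortex and endodermis sum was 509 to 1003 in sorted cells and 1071 to 1150 in intact roots. The photosynthesis sums overlapped, at 456 to 1790 in sorted cells and 1420 to 1793 in intact roots. In the auxin average 3 of 6 cortex and endodermis members and 3 of 7 photosynthesis genes were called lower, where 27.6% of all genes were. The part of lost cell types in the falls described above was not tested.

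Markers of the sorted tissues gave a mixed check of the labels. Of 24 epidermis, root hair and lateral root cap markers 4 were tested, and their sum was 1376 to 1665 in sorted epidermis arrays, 262 to 1045 in the other sorted mock arrays and 3727 to 3875 in intact roots. In mock arrays the sum was thus higher in the epidermis sort than in any other sort, but below intact roots. It did not set the epidermis apart in the auxin arrays. There it was 141, 135 and 124 in the epidermis, 348, 207 and 288 in the stele, 146, 138 and 526 in the pericycle and 75, 121 and 118 in the columella. Under mock treatment the root hair expansin EXPA7 had 288, 249.8 and 348 in the sorted epidermis, against 445, 484 and 393 in intact roots, and EXPA18 had 323, 258 and 360.03 against 1716, 1543 and 1537. The other 2, AT1G30870 and GH9C1, had epidermis changes of -1.25 and -0.62, against -3.19 and -2.66 in the stele. AT1G30870 was not called in all 4 tissues with a pseudocount of 1, without epidermis mock array 3 or without intact mock array 3. Of the stele markers 2 were tested. LHW, a regulator of vascular divisions, had a change of 0.04 in the stele and -1.19 in the columella, and PHV, a HD-ZIP III factor, had 0.93 in the stele with an F-test adjusted p of 0.0773. The average fall of LHW, -0.72 ± 0.26, was not called under quantile normalization or without intact mock array 1. The 1 tested pericycle marker, AT5G09760, rose in all 4 tissues, and did not set the pericycle apart: its changes were 2.03 (stele), 2.01 (pericycle), 1.73 (epidermis) and 1.88 (columella) (F-test adjusted p = 0.725). No columella marker had a named probe set.

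Of 16 tested mitochondrial genome genes 11 were higher on average, where 30.2% of all tested genes were, and none was lower, with a median of 0.75 against 0.014 over all genes. In all 4 tissues 2 of them (nad4 and nad1) rose, against 5 under centring on the 75th percentile and 1 under quantile normalization. Neither was called in all 4 tissues without epidermis mock array 2 or 3 or intact mock array 1 or 3, nad4 also without intact mock array 2, and nad1 also without columella mock array 2 or 3 or under quantile normalization. Of 68 tested plastid genome genes none held in all 4 tissues, and the median of their average changes was -0.22, but the tissues went apart. In the epidermis 45 of the 68 were lower, where 28.4% of all genes were, and none was higher, and the alternatives gave 40 to 52 lower. In the pericycle 26 were higher and none lower, where 24.9% and 26.7% of all genes were. Without intact mock array 1, 13 were higher in the pericycle. In the stele 22 were higher and 17 lower (29.8% and 26.2% of all genes). The columella had 7 lower and none higher (27.0% and 24.2% of all genes). Counts in the stele and columella moved by over 1.5 times when single arrays were left out. psbA, which encodes a reaction centre protein of photosystem II, had 219, 531 and 341 in the epidermis, 696, 929.9 and 1069 in the stele, 3346, 2189 and 3276 in the pericycle and 3989, 2127 and 2343 in the columella, against 2655, 3395 and 4846 in intact roots. Its epidermis and stele arrays were below all intact arrays, while its pericycle and columella arrays overlapped them. On average 8 of the 68 were higher and 22 lower, where 30.2% and 30.8% of all genes were. In the auxin arrays 41 of the 68 were higher and 1 was lower, where 31.4% and 27.6% of all genes were.

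**Figure D4:**
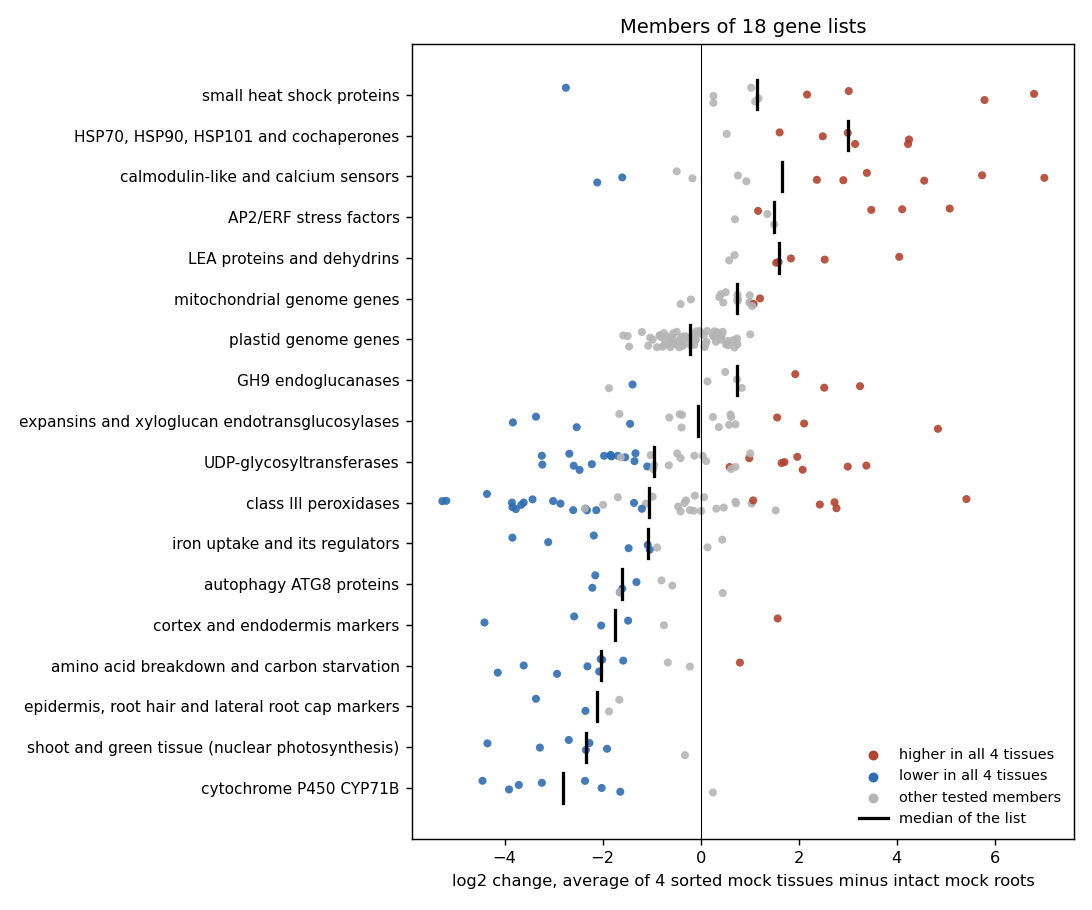
Log2 change (x axis, average of the 4 sorted mock tissues minus intact mock roots) of the tested members of 18 gene lists; points are genes, red and blue mark those called higher or lower in all 4 tissues, and black bars are list medians. Medians run from 3.00 for the chaperones to -2.80 for CYP71B genes.

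Changes that were limited to some tissues were set apart by the F-test among the 4 sorted mock groups, in which the intact arrays cancel out. It was passed by 3268 genes (35.0%). Among genes that held in all 4 tissues it was passed by 550 of 1403 higher (39.2%) and 520 of 1635 lower genes (31.8%), so these differed in size among tissues. It was also passed by 1059 of 2100 genes higher in 1 to 3 tissues and 794 of 1760 genes lower in 1 to 3. For the rest of those genes a missing call in a tissue does not show that the tissue differed. The stele alone accounted for 489 genes called higher in 1 tissue, of which 238 passed the F-test, against 151 for the pericycle, 138 for the epidermis and 106 for the columella. In the lower direction the counts were 177 for the stele, 190 for the pericycle, 214 for the epidermis and 121 for the columella. By pairs, 265 genes were higher in stele and pericycle together and 161 in epidermis and columella together, and 22 were higher in pericycle and epidermis.

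Among genes called higher in the stele alone, AT4G11210 had 215, 196 and 165 in the stele, against 27.9, 20.8 and 23.2 in intact roots, and a change of 0.27 in the pericycle. AT2G37610 had a stele change of 2.45, and the genes lower in the stele alone were AT2G21185 (-1.99) and AT1G08340 (-1.98). In the pericycle alone AT2G15780 had 217, 81.7 and 138, against 1.48, 5.34 and 3.29 in intact roots, and AT2G16890 had a change of 2.75. AT5G60160 fell in the pericycle alone, to 47.9, 49.0 and 44.1, against 516, 480.1 and 525 in intact roots, while its signal in the other sorted arrays was 420.3 or more. AT1G48170 had a pericycle change of -1.54. In the columella alone AT2G28870 had 307, 630.1 and 672, against 39.7, 43.5 and 43.2 in intact roots, and AT5G48130 had a change of 2.42, with AT3G27700 (-1.73) and AT3G13980 (-1.61) lower. In the epidermis alone AT3G20160 had a change of 1.49, and AT3G50140 one of 1.67 that was not called without epidermis mock array 1. The plastid genes psbK, of photosystem II, and rbcL, the large subunit of Rubisco, were lower in the epidermis alone. psbK had 243, 751 and 695 in the epidermis, against 1966, 2652 and 3212 in intact roots, and rbcL had 393, 658 and 674 against 1833, 3171 and 3219.

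The 160 genes called in opposite directions were led by genes that stood out in the pericycle. AT1G67870 had 1139, 1120.2 and 3904 in the pericycle and no more than 9.72 in the other sorted arrays, against 178, 172 and 191 in intact roots. BCAT4, an enzyme of methionine-derived glucosinolate synthesis, had 1045, 819 and 576 in the pericycle, 0.63, 21.8 and 17.2 in the epidermis, 18.5, 14.5 and 35.2 in the columella and 8.10, 14.2 and 3.91 in the stele, against 343, 365 and 289 in intact roots. For both genes the pericycle arrays lay above all intact arrays and the other 9 sorted arrays below them. ATC, a relative of TERMINAL FLOWER 1, had 1080.5, 879 and 1005 in the pericycle, against 56.4, 75.9 and 75.7 in intact roots, and changes of -1.25 in the epidermis and -0.94 in the columella. CCR2, a cinnamoyl-CoA reductase, had pericycle and epidermis changes of 2.69 and -1.81. AT5G43180 and AT3G45160 had pericycle changes of 2.09 and 1.48 and epidermis changes of -3.44 and -3.38. All 6 were chosen for this range, so it is a description.

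Sorted cells were also set against intact roots in the 15 auxin-treated arrays. None of these entered the mock comparison, although all 30 shared 1 estimate of the spread. The sorted auxin-treated cells had longer exposure to IAA than the intact auxin-treated roots, so this was not a plain repeat. The part of that longer exposure was not tested. In the auxin arrays the average of the sorted tissues was higher in 2931 genes (31.4%) and lower in 2573 (27.6%). Of the 1403 genes higher in all 4 mock tissues, 1267 (90.3%) were called higher in the auxin average and 18 lower. Of the 1635 genes lower in all 4 mock tissues, 1450 (88.7%) were called lower and 5 higher. In all 4 tissues of both sets 883 genes were higher and 1043 lower. Across the 9324 genes, which are not independent replicates, the 2 average changes correlated at 0.866. CML37, HSP17.6C and ZAT10 had changes of 6.01, 7.14 and 3.48 in the auxin arrays, and CML39 one of 5.31.

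Few genes turned round: 84 were called in opposite directions in the mock and auxin averages. GH3.1 was among them, with -1.11 ± 0.16 in the auxin arrays, as was WRKY53, with -0.61 ± 0.25. AT2G18980, a class III peroxidase, had 116 to 1316 (median 397) in sorted mock arrays, against 191, 130.4 and 93.7 in intact mock roots. In the auxin arrays it had 19.2 to 167 in sorted cells, against 655, 721 and 611 in intact roots, a change of -3.33 ± 0.26. The root hair genes EXPA7 and EXPA18 had changes in the auxin arrays of -3.76 and -6.08 against -1.66 and -3.36 in the mock arrays; these differences between the sets were not tested.

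**Figure D5:**
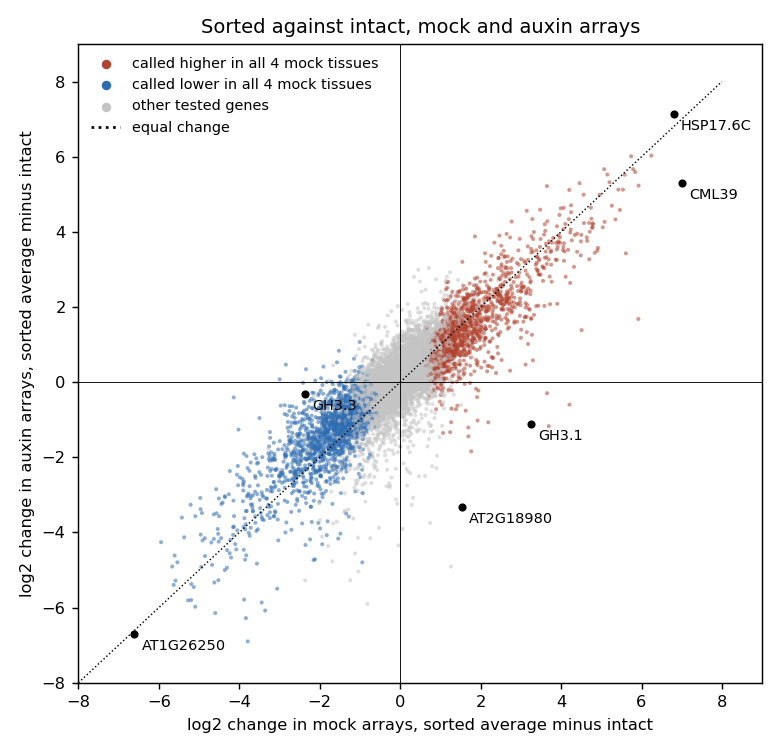
Log2 change of each tested gene, average of the sorted tissues minus intact roots, in mock arrays (x axis) and in auxin arrays (y axis); the dotted line marks equal change and 6 genes are named. Genes called in all 4 mock tissues (red and blue) mostly lie on the same side of 0 in both sets, and GH3.1 and AT2G18980 lie on opposite sides.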

How the data were processed

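The series holds 30 single-colour Affymetrix ATH1 arrays of Arabidopsis thaliana roots in 10 groups of 3. The values are MAS5 signal intensities on a linear scale as deposited by the authors, per the submitters' processing notes. For the MAS5 version and the chip definition, nothing was given in the sources used here. Of 22810 probe sets 64 are controls, and GEO's platform annotation names 1 gene for 13513, several for 503 and is not listed here for 8730. Symbols were updated from RefSeq (TAIR10.1), which held 13436 of the gene numbers. STZ is printed as ZAT10, and AT1G53540 as HSP17.6C. For a gene with several probe sets, the 1 with the highest mean log2 signal was used.

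Genes above the 40th percentile of their array in at least 3 arrays were tested on log2(signal + 16) with limma 3.58.1 in R 4.3.3, as 1 fit over all 10 groups with an intensity trend and Benjamini-Hochberg adjustment over all tested genes. Contrasts set each sorted mock group, and their average, against intact mock roots, and a moderated F-test compared the 4 sorted mock groups. The fit was tested on simulated data. The number of arrays limits the precision. Figures were drawn with Python 3.11.15 and matplotlib 3.10.9.

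Named genes are the given markers, the 12 rises and 12 falls with the largest smallest change of the 4, leading genes of each tissue and opposite pattern, and leading members of the gene lists; 37 further genes were chosen after their values were seen. The members and lists were chosen with earlier results of these data known. Alternatives were the pseudocount, the filter, normalization, the summary over probe sets, the variance model, mock arrays alone, the replicate number as a block, and each array left out. Same-numbered arrays of different groups did not deviate together: over 30 pairs the correlation of deviations from the group mean was -0.025 to 0.213 with a median of 0.015, and 3 pairs were over 0.1, so the numbers were not taken as pairs.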

Additional observations from a re-analysis of the deposited data

Results flagged for a closer look

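For 79 of the 127 named genes the change differed in size among the 4 sorted mock tissues by the F-test (adjusted p under 0.05), against 35.0% of all tested genes. The value in brackets is the range of the 4 log2 changes, largest minus smallest, and many of these genes were named for that range. Of the 7 called in opposite directions, 6 had the widest ranges: AT1G67870 (6.46), AT5G43180 (5.53), BCAT4 (5.05), AT3G45160 (4.91), ATC (4.81) and CCR2 (4.50). The other was PUB24 (1.86). Those called in 1 tissue alone were AT2G37610 (2.81), AT4G11210 (2.50), AT2G21185 (1.78), AT1G08340 (2.42), AT2G15780 (3.13), AT2G16890 (2.98), AT5G60160 (3.27), AT1G48170 (1.20), AT3G50140 (1.96), AT3G20160 (1.67), psbK (2.92), rbcL (2.67), AT2G28870 (3.28), AT5G48130 (2.19), AT3G27700 (1.12), AT3G13980 (1.84) and CYP71B5 (0.97).

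Among the genes called in 2 to 4 tissues in 1 direction, the calcium sensors were CML37 (1.14), CML23 (1.82) and CML42 (1.04) and the chaperones HSP17.6C (3.01), AT1G54050 (2.14), AT2G29500 (1.35), AT4G21870 (1.04), ROF2 (0.95), Fes1A (1.59) and Hsp70-2 (1.76). The transcription factors and ubiquitin ligases were WRKY6 (1.50), WRKY53 (1.67), AT5G61890 (3.80), AT1G19210 (1.82), MYC4 (0.87), PUB19 (0.77), PUB22 (1.67), PUB23 (1.90) and BIK1 (1.90) (BIK1 being a kinase). The detoxification, stress and lectin genes were GSTL3 (1.66), UGT73B4 (2.15), UGT72E1 (1.99), AtLEA4-1 (1.31), LTI30 (1.03) and JAL33 (1.02). The wall genes and peroxidases were EXPA9 (1.24), EXPA18 (1.81), EXPA7 (1.78), XTH33 (2.51), XTH19 (0.68), EXPB1 (1.30), GH9C3 (2.04), GH9C1 (2.04), PRX71 (1.50), PRX72 (3.06), AT5G19890 (3.51), AT5G24070 (2.56), AT2G18980 (2.52) and AT1G30870 (1.94). The remaining ones were AT5G19110 (0.85), AT3G15670 (1.41), AT1G19960 (1.21), AT1G61590 (1.19), GSO1 (1.20), LHW (1.24), RCA (1.73), PSAE-1 (2.27), psbA (3.02), FDH (1.77), MCCA (2.44), LKR/SDH (1.15), ATG8F (0.92), GH3.1 (1.19), GH3.3 (0.79) and IAA30 (1.22).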

How the results depend on the processing

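Over pseudocounts of 1 and 64, no filter, quantile normalization, centring on the 75th percentile, mock arrays alone, no intensity trend, array weights and the median over probe sets, the number of genes called in each comparison stayed within 1.5 times the value given. When a change of more than 2-fold was also asked for in each tissue, 821 genes were higher and 1075 lower in all 4, because fewer genes meet both conditions. Leaving out 1 array at a time gave 5005 to 5708 genes called in the average, 4744 to 5286 in the stele, 4285 to 4871 in the pericycle, 4508 to 5033 in the epidermis, 4310 to 4839 in the columella, 1246 to 1385 higher and 1454 to 1602 lower in all 4 tissues, 2728 to 3249 by the F-test and 4772 to 5593 in the auxin average. With the replicate number as a block, although the numbers do not pair the arrays, 5748 genes were called for the sorted mock average minus intact mock, 1430 were higher and 1650 lower in all 4 tissues, and no comparison's count moved by 1.5 times. Centring on the 75th percentile moved the median change of all genes to 0.146 and the share of higher calls in the average to 56.6%, against 49.6%. No named gene changed direction. ATC, not called on average, was called with a pseudocount of 64 (0.50). ATG8H, also not called on average, was called under quantile normalization (0.51), centring on the 75th percentile (0.58), mock arrays alone (0.45), array weights (0.46) and without stele mock array 1 (0.51). Calls lost under another setting are named beside each gene, and their causes were not tested. The array's floor limits the lowest signals, for which no detection calls were given.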
